A study of Arabidopsis thaliana with 4 samples.

Results

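The differentially methylated regions (DMRs) between plants grown in high (FLH) and in low (FLL) fluctuating light were the 6272 regions listed for this pair of growth light regimes, of 24806 regions listed over all 4 comparisons of the series. They were taken as deposited, with FLH against FLL, and no region was added or left out. The question of this comparison is whether acclimation to more or to less light, delivered in the same naturally fluctuating pattern, goes with different DNA methylation in the leaf. Arabidopsis thaliana plants of the wild-type accession Col-0 were acclimated for 22 d, by the labels, and the light averaged 460 μmol m-2 s-1 in FLH and 230 μmol m-2 s-1 in FLL. The FLL programme followed the FLH programme at a lower level. The series also holds high (SQH) and low (SQL) square-wave light, in which the light was constant through the day at the same 2 mean levels, and these are used here only beside FLH and FLL. Whole-genome bisulfite sequencing was done on leaf DNA, and each regime is 1 library of DNA pooled from 6 plants. There was therefore no replicate check of any difference. Tests on reads compare these 2 libraries and not the light regimes, and differences between pools of plants and differences between regimes cannot be told apart.

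In plants a cytosine can be methylated in 3 sequence contexts, where H is A, C or T. CpG methylation is copied after replication by the methyltransferase MET1 and is found in transposable elements (TEs) and also in the bodies of many expressed genes. CpHpG methylation is kept mainly by CMT3, which reads a mark on histone H3. CpHpH methylation is laid down by CMT2 in heterochromatin and by RNA-directed DNA methylation (RdDM), in which small RNAs guide a methyltransferase to short TEs near genes and to the edges of long ones. In this section a level is the percentage of reads that were methylated over all cytosines of the context in a region, a difference is the FLH level minus the FLL level in percentage points, and brackets after a level give its 95% Wilson interval, which covers counting error only.

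The sequences of 7 regions on which the results below turn are given first, because the number and the place of the cytosines set how many reads each level rests on. They were read from the plus strand of TAIR10.1, the RefSeq copy of TAIR10, in which the number of cytosines was that of the deposited table for all 6272 regions. Capitals mark the cytosines of the stated context, C on the printed strand and G where the cytosine is on the other strand. The CpG region in a coding exon of AT3G58730 (chr3:21718601-21718750), the gene of subunit D of the vacuolar proton pump, holds 4 CpG cytosines. The CpG region of CMT3 (chr1:26249701-26249850) also holds 4, and the 3 CpG regions of CLSY1 (chr3:14756501-14756650, chr3:14758451-14758600 and chr3:14759351-14759500) hold 10, 10 and 12. The CpHpG region of an ATREP3 element (chr3:9383651-9383800) holds 4 CpHpG cytosines, all near its right end. The CpHpH region upstream of AT4G10060, a gene annotated as a beta-glucosidase (chr4:6288401-6288550), holds 42 CpHpH cytosines.
AT3G58730, CpG: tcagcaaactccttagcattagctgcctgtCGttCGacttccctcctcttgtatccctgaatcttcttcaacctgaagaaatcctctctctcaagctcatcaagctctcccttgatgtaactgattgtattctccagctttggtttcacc
CMT3, CpG: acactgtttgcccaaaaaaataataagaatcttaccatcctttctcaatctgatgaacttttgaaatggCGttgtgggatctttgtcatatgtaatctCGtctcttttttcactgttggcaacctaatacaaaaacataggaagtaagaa
CLSY1 region 1, CpG: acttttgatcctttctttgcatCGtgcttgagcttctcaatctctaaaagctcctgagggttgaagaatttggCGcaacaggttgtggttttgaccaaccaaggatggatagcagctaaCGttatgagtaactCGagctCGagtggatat
CLSY1 region 2, CpG: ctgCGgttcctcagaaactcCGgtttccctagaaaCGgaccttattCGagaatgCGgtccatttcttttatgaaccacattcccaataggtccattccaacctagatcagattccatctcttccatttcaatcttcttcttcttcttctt
CLSY1 region 3, CpG: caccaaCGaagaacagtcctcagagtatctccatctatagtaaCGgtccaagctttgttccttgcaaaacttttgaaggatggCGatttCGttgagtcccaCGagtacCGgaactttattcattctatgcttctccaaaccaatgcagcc
ATREP3, CpHpG: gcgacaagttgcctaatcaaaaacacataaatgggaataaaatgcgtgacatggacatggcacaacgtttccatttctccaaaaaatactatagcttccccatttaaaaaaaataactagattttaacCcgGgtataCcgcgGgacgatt
AT4G10060 upstream, CpHpH: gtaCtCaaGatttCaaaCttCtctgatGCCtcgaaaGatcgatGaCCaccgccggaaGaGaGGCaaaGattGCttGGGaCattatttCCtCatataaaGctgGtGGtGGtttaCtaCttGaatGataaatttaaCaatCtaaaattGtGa

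CpHpG and CpHpH regions were more often lower than higher in FLH, whereas CpG regions were divided nearly evenly. In CpHpH, 1072 regions were higher in FLH and 2033 higher in FLL, so that 34.5% were higher in FLH (95% Wilson interval 32.9 to 36.2). In CpHpG, 300 were higher in FLH and 493 in FLL (37.8%, 34.5 to 41.3). In CpG, 1156 were higher in FLH and 1218 in FLL, and the interval of the share in FLH, 48.7% (46.7 to 50.7), includes an even split. The authors called a region with the higher level in FLL a gain and one with the higher level in FLH a loss. Over the reference sequence, the called regions took up 0.405% of the 150 bp bins with at least 4 CpG cytosines, 0.128% of those with at least 4 CpHpG cytosines and 0.422% of those with at least 4 CpHpH cytosines. Whether the other bins had enough reads to be called is not known.

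The sizes of the differences were alike in both directions. The CpG regions higher in FLH had a median level of 83.6% in FLH and 56.0% in FLL, and those higher in FLL had 56.1% in FLH and 83.9% in FLL. In CpHpG the regions higher in FLH had medians of 56.1% in FLH and 28.5% in FLL, and those higher in FLL had 27.8% in FLH and 55.2% in FLL. In CpHpH the medians were 26.6% in FLH and 13.2% in FLL for the first direction, and 13.7% in FLH and 27.2% in FLL for the other. By these medians CpG regions differed between an intermediate and a high level, and CpHpH regions between lower levels. Few regions were unmethylated in a library. In CpHpH, 11 of the 2033 regions higher in FLL had no methylated read in FLH. Of the 1072 higher in FLH, 3 had none in FLL. No methylated read was found in FLH at 66 of the 1218 CpG regions higher in FLL, nor in FLL at 36 of the 1156 CpG regions higher in FLH. The median difference was 25.27 points in CpG regions higher in FLH and -24.96 points in those higher in FLL, 26.38 and -25.78 points in CpHpG, and 12.43 and -12.74 points in CpHpH. The authors required a difference of at least 20 points in CpG and CpHpG and 10 points in CpHpH, so these medians lie not far above the minimum. Only 77 CpG and 34 CpHpG regions differed by 40 points or more, and the largest CpHpH difference was 38.3 points.

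**Figure D1:**
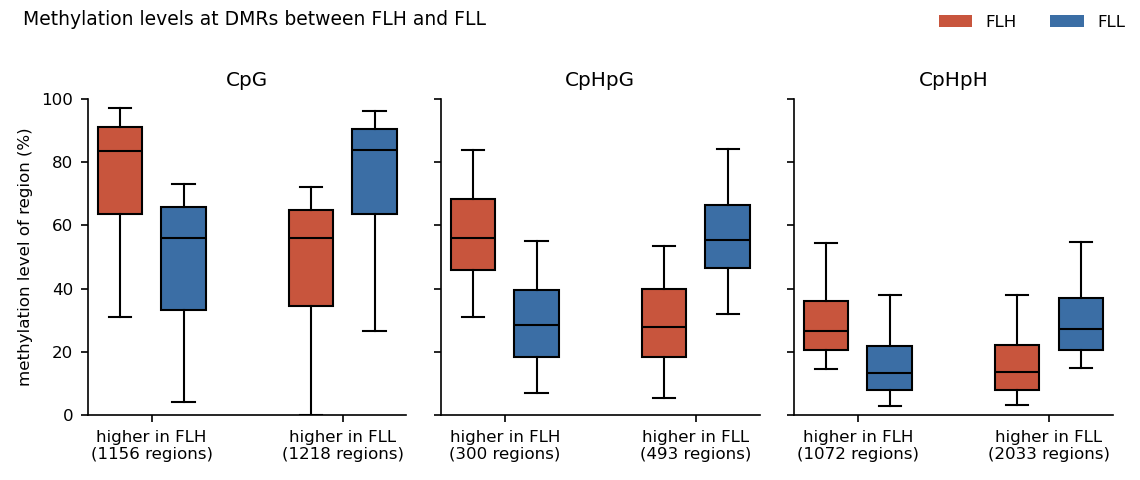
Methylation level of each DMR (%) in FLH (red, left of each pair) and FLL (blue, right), by context and by the regime with the higher level. Boxes span the quartiles with the median as a line and whiskers the 5th to 95th percentile over regions, and in each context the 2 directions are near mirror images of each other.

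The FLH library was the shallower one over these regions. Reads per cytosine had a median of 8.67 in FLH and 9.5 in FLL at the CpG regions, 7.48 and 8.45 at the CpHpG regions, and 7.93 and 8.19 at the CpHpH regions. FLH was the deeper library at 2509 of all 6272 regions. At the CpHpH regions where FLH was deeper, 67.4% were higher in FLL, and at the other CpHpH regions 63.8% were, so FLL was ahead in both sets. In CpG the share higher in FLH was 53.6% where FLH was deeper and 46.0% elsewhere, on either side of an even split. Fisher's exact test, run on the reads of each region, gave a Benjamini-Hochberg adjusted p under 0.01 for 6238 of the 6272 regions, but the regions had been called on these same reads. A read that covers several cytosines is also summed once for each of them. Each region was also given only as many observations as it had reads at an average cytosine. The exact test then gave 0 regions past 0.01 after adjustment and 40 with an unadjusted p under 0.05. So few observations leave a test adjusted over all regions little room to pass any. A score test on the summed reads gave 6272 regions past 0.01 after adjustment.

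The regions with the largest differences lay as often outside TEs as in them. They were the 3 per context and direction with the largest absolute difference among regions of at least 8 reads per cytosine in both libraries. Of these 18, 9 were in a named TE, beside 55.7% of all regions with that coverage. So few regions cannot be set apart from that share. A coding exon of AT1G20925, annotated as an auxin efflux carrier (chr1:7291951-7292100), had a CpG level of 69.0% in FLH and 8.33% in FLL. At chr3:11473151-11473300, over AT3G29638, 22 of 37 CpG reads were methylated in FLH and 0 of 45 in FLL, which allows a level of up to 7.87% in FLL by the Wilson interval. Both regions were methylated in FLH and nearly free of CpG methylation in FLL.

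In the other direction, an ATIS112A element (chr2:623501-623650) had 9 of 53 CpG reads methylated in FLH and 30 of 38 in FLL, or 17.0% and 78.9%. A coding exon of AT1G06150 (EMB1444, annotated as a basic helix-loop-helix protein) had 36.5% in FLH and 90.1% in FLL, and an intergenic region of chromosome 1 (chr1:8495101-8495250) had 18.4% in FLH and 72.0% in FLL. In CpHpG, the largest differences in favour of FLH were in a HELITRON1, an ATREP3 and an ATHILA6B element, with 55.8% to 72.7% in FLH and 14.3% to 28.6% in FLL. Those in favour of FLL included an ATHILA4C element, with 37.3% in FLH and 80.3% in FLL, an intergenic region of chromosome 5 (chr5:11950805-11950954), with 14.3% in FLH and 54.5% in FLL, and the ATREP3 element printed above, with 12 of 34 reads in FLH and 36 of 47 in FLL. The ATREP3 levels were thus 35.3% (21.5 to 52.1) in FLH and 76.6% (62.8 to 86.4) in FLL, wide intervals that follow from its 4 cytosines.

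In CpHpH a region holds more cytosines, so the summed reads are more and the intervals narrower, although a read is summed once for each cytosine it covers. The region upstream of AT4G10060 had 11 of 479 reads methylated in FLH and 127 of 426 in FLL, or 2.30% (1.29 to 4.06) and 29.8% (25.7 to 34.3). The region with the largest difference in favour of FLL among those well covered, upstream of AT5G58370 (chr5:23592755-23592904), had 23.0% in FLH and 54.3% in FLL. An RP1_AT element (chr2:12725501-12725650) had 40.5% in FLH and 68.2% in FLL. The opposite extreme was an intergenic region of chromosome 5 (chr5:21155705-21155854) with 63.3% in FLH and 37.1% in FLL. An ATREP3 element (chr1:1976251-1976400) and an intron of AT4G09490 followed, with 43.4% and 42.8% in FLH and 17.4% and 17.1% in FLL.

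By the deposited annotation, 4225 of the 6272 regions lay in a TE, and 2594 carried a gene name, 1504 of them together with a TE. TEs held 50.8% of the CpG, 76.3% of the CpHpG and 77.7% of the CpHpH regions. The share of all bins that lie in TEs, or in each TE group, was not computed. These shares and the counts by TE group below therefore do not show an excess of regions in TEs. The direction was nearly the same inside and outside TEs. In CpHpH, 35.3% of regions in a TE (33.4 to 37.2) and 31.8% of the others (28.4 to 35.4) were higher in FLH, and in CpHpG 38.0% (34.2 to 41.9) and 37.2% (30.6 to 44.3). In CpG the shares were 47.8% in TEs (45.0 to 50.6) and 49.6% elsewhere (46.8 to 52.5). In each context these pairs of intervals overlap.

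Helitrons, DNA transposons that move by rolling-circle replication, held the largest number of CpHpH regions of any TE group, 935. Of these, 32.8% were higher in FLH (29.9 to 35.9), with medians over all 935 of 18.2% in FLH and 23.9% in FLL. Mutator-like elements held 362 CpHpH regions with 34.0% higher in FLH (29.3 to 39.0). Gypsy retrotransposons, long elements concentrated around the centromeres, held the largest number of CpG and CpHpG regions of any TE group, 483 and 265. Gypsy regions were 82.2% pericentromeric, against 18.6% of Helitron regions. In CpG, 44.5% of the Gypsy regions were higher in FLH (40.1 to 49.0), with medians of 69.1% in FLH and 77.9% in FLL. The interval lies under an even split, but at 8 reads per cytosine the share was 47.5% of 80 regions (36.9 to 58.3), which includes it. In CpHpG, 41.9% of the Gypsy regions were higher in FLH (36.1 to 47.9), and 29.3% of the 58 Copia regions were (19.2 to 42.0). LINE, CACTA and hAT elements had 34.8% to 39.5% of their CpHpH regions higher in FLH. The short SINE and RathE elements had 44.4% of 72, with an interval of 33.5 to 55.9 that includes both an even split and the share of all CpHpH regions. No TE group with at least 20 CpHpH regions had more of them higher in FLH than in FLL.

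**Figure D2:**
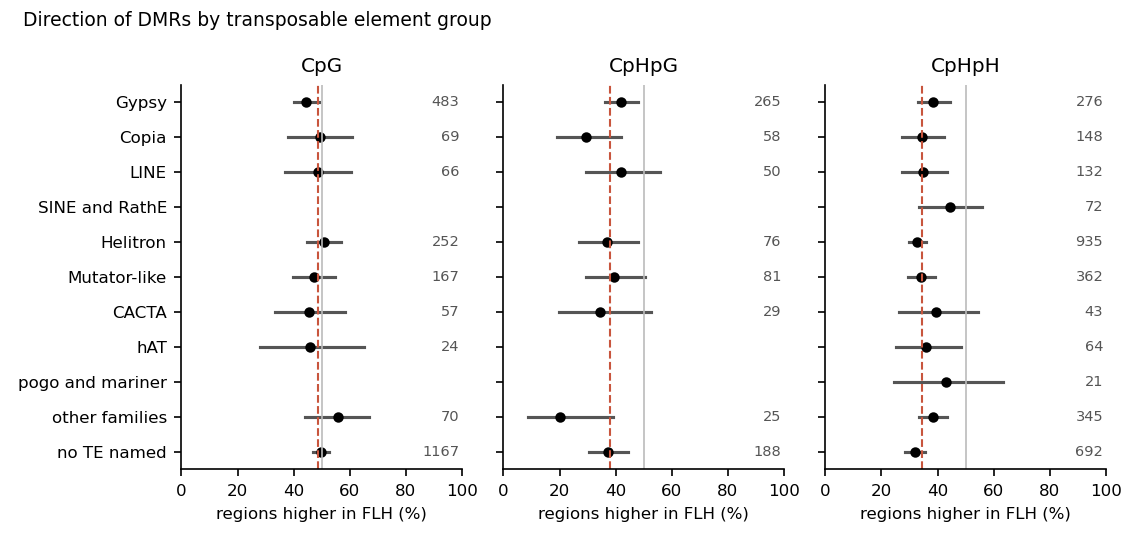
Share of DMRs with the higher level in FLH (%, horizontal axis) by TE group (rows) and context (panels), with 95% Wilson intervals as lines. Grey numbers give the regions per group, groups under 20 are left out, the dashed line is the share over all regions of the context and the grey line marks 50%. In CpHpH every group shown sits left of 50%.

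Among the 278 TE families named, the 12 with most regions were Helitrons and Gypsy elements, and CpHpH regions of 11 of them were more often higher in FLL. ATREP3, a Helitron family, had 257 regions at 183 TE loci. Of its 210 CpHpH regions 68 were higher in FLH and 142 in FLL, with medians of 16.4% in FLH and 23.6% in FLL. ATREP11, ATREP1 and ATREP2 had 28.0%, 28.6% and 30.4% of their CpHpH regions higher in FLH, and HELITRONY3 and ATREP5 had 39.3% and 42.0%. ATHILA2, ATHILA6A and ATHILA3, Gypsy families, had 90.8%, 96.0% and 92.2% of their regions in the pericentromere, and ATHILA3 was the family without a majority, with 7 CpHpH regions in each direction. In CpG, ATHILA6A had 15 regions higher in FLH and 22 in FLL, and ATGP1 had 22 and 17. The intervals of both shares, 26.3 to 56.5% and 41.0 to 70.7%, include an even split.

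Many TE loci with several regions held both directions. Of the 3242 TE loci named, 2573 held 1 region and cannot show this. Of the 293 TE loci with at least 2 CpHpH regions, 178 (60.8%, 55.1 to 66.2) held regions of both directions, 21 held only regions higher in FLH and 94 only regions higher in FLL. In CpG, 58 of 99 such loci held both directions. Whether these counts differ from what unrelated directions would give was not tested. With unrelated directions too, a locus with more regions would more often hold both. The TE loci with most regions are therefore given as examples only. A VANDAL3 element on chromosome 2 (AT2TE45465) had 5 CpHpH regions, 3 higher in FLH and 2 in FLL, and over these regions 24.6% of reads in FLH and 20.3% in FLL were methylated. An ATLANTYS1 element on chromosome 4 (AT4TE09385) had 2 CpG regions in each direction, while its 3 CpHpH regions were all higher in FLL, at 10.5% in FLH and 22.8% in FLL. A VANDAL2 element (AT4TE23825) had 1 CpHpG region higher in FLH and 3 higher in FLL. An ATHILA6B element on chromosome 1 (AT1TE51050) had 3 CpG regions higher in FLL (52.1% in FLH and 77.7% in FLL). Its 1 CpHpG and 2 CpHpH regions, which lay in other bins, were higher in FLH (19.7% in FLH and 6.03% in FLL over the CpHpH pair). An ATLANTYS1 element on chromosome 3 (AT3TE51535) held both directions in CpG and in CpHpH.

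Neighbouring regions of 1 context were often of opposite directions. Of 265 pairs of neighbouring CpHpH regions 201 to 1000 bp apart, 54.0% (47.9 to 59.9) had the same direction, and 54.8% would have it if directions were unrelated. At 1001 to 5000 bp the share was 57.9% (53.4 to 62.3), and at 5001 to 50000 bp it was 55.0%. In CpG, 25 of 59 pairs 201 to 1000 bp apart (42.4%, 30.6 to 55.1) had the same direction. In CpHpG the share at this distance was 16 of 21 pairs (76.2%, 54.9 to 89.4), beside 53.0% for unrelated directions, and it was 44.9% of 78 pairs at 1001 to 5000 bp. Within a 150 bp bin, by contrast, contexts moved together. Bins called in CpHpG and CpHpH had the same direction in 53 of 53 cases, those called in CpG and CpHpG in 33 of 33 and those called in CpG and CpHpH in 45 of 46. The contexts of a bin are read from the same DNA fragments, so these are not separate measurements. Such bins were rare, 114 of 6149, and 9 were called in all 3 contexts, 2 of them higher in FLH and 7 in FLL. Those higher in FLL included a bin in an ATCOPIA69 element (AT2G19840) and one in an ARNOLD3 element (AT3G47280), the latter with only 16 CpG reads in FLH. They also included bins in no named TE, such as chr1:19713451-19713600. The bins higher in FLH lay in no named TE.

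Regions of 1 context and direction that lay within 1 kb of each other were joined into runs, and the longest run of each chromosome was in CpHpH. On chromosome 3 a run of 3 regions over 2250 bp of an ATREP3 element (AT3TE39205, chr3:9383801-9386050) had 10.5% in FLH and 23.5% in FLL, with 1 region of the opposite direction inside it. It begins where the printed ATREP3 region ends. On chromosome 1 a run over 2100 bp (chr1:6591601-6593700) in and beside AT1G19090, the gene of the receptor-like kinase RKF2, had 16.5% in FLH and 28.6% in FLL. On chromosome 5 a run over 2100 bp at an ATREP10D element, which overlaps AT5G56920, had 26.8% in FLH and 39.1% in FLL. On chromosome 4 the longest run, 1200 bp at an ATREP7 element, was higher in FLH, at 37.3% in FLH and 23.1% in FLL. No run held more than 3 regions. The widest region that the authors joined themselves was a CpG region of 1200 bp in a HELITRON1 element (chr1:28515001-28516200), with 89.3% in FLH and 50.2% in FLL.

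Along the chromosomes, CpG and CpHpG regions were concentrated around the centromeres, and CpHpH regions much less so. Windows of 500 kb next to a centromere counted as pericentromere where their number of protein-coding genes was below 0.5 times that of the median window. It held 39.1% of the CpG regions (37.2 to 41.1) and 54.9% of the CpHpG regions (51.4 to 58.3), against 14.4% and 14.0% of the bins with at least 4 cytosines of these contexts. It held 19.1% of the CpHpH regions (17.8 to 20.5) against 14.6% of such bins. Of the CpG regions in the pericentromere 45.5% were higher in FLH (42.4 to 48.7), and of those on the arms 50.7% (48.2 to 53.3), with intervals that overlap slightly and of which the first lies under an even split. For CpHpG the shares were 38.6% and 36.9%, and for CpHpH 36.1% and 34.2%, and their intervals overlap. By chromosome, the share of CpHpH regions higher in FLH lay between 33.5% (chromosome 2) and 36.0% (chromosome 4), and that of CpHpG regions between 31.3% (chromosome 1) and 42.0% (chromosome 3). FLL was thus ahead in both non-CpG contexts on each of the 5 chromosomes.

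**Figure D3:**
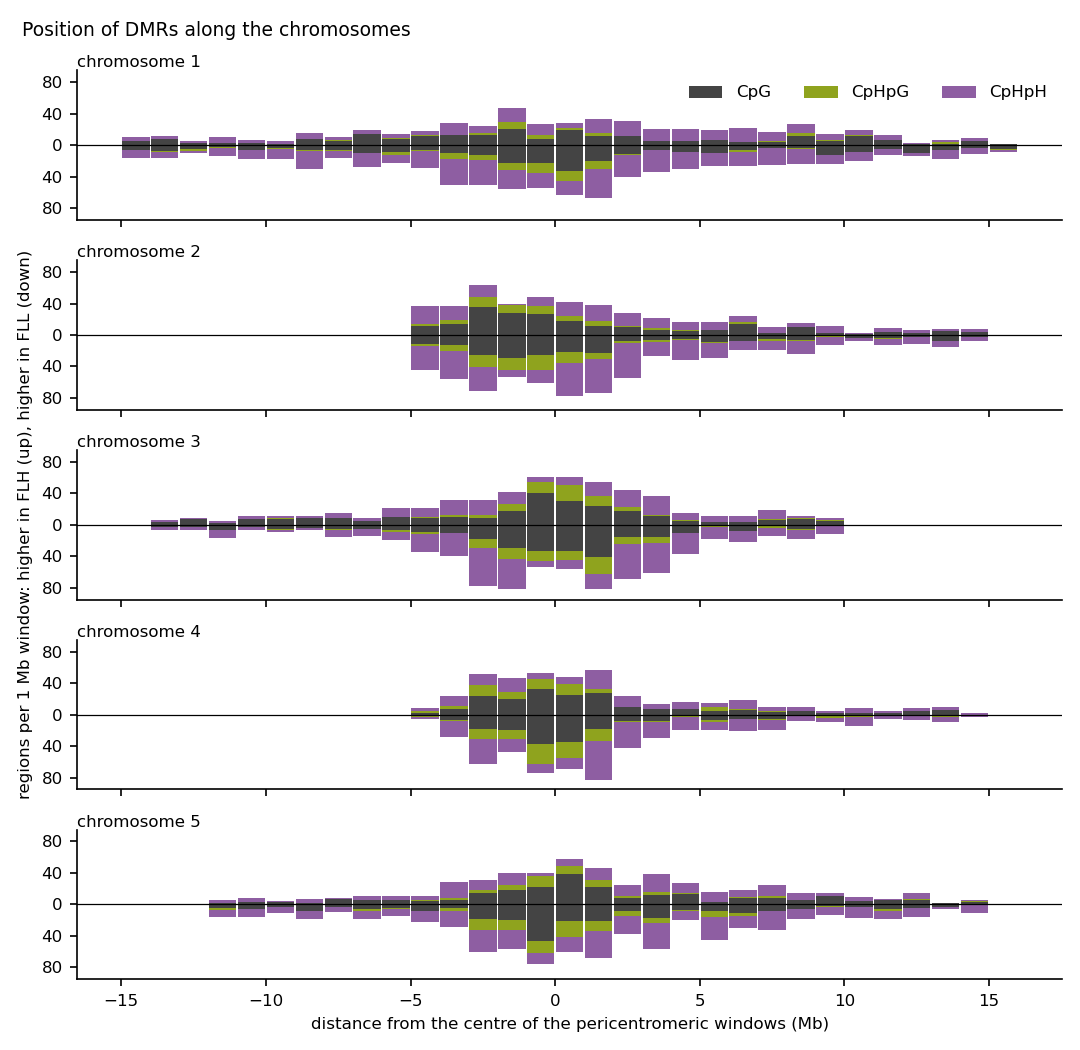
Number of DMRs per 1 Mb window against the distance from the centre of the pericentromeric windows (Mb) on each of the 5 chromosomes. Bars above the line are regions higher in FLH and bars below it regions higher in FLL, coloured by context, and CpG (dark) and CpHpG (green) are densest near 0.

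A small group of regions, picked out after their values were seen, lay within 1 kb of a chromosome end. All 6 were CpHpH regions. At the start of chromosome 3 an ATREP18 element had 30.1% in FLH and 58.5% in FLL, and near the end of chromosome 2 another ATREP18 element had 28.9% in FLH and 11.0% in FLL. At the start of chromosome 5 adjacent bins had opposite directions, with 20.4% in FLH and 38.8% in FLL in the bin nearest the end and 31.4% in FLH and 13.8% in FLL in the next. These ends have no common direction.

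In genes, CpG regions were the commonest. Coding exons held 21.8% of the CpG regions but 5.04% of the CpHpG and 1.80% of the CpHpH regions, against 33.1%, 34.4% and 28.3% of the bins. The 1 kb before the start of a protein-coding gene held 25.6% of the CpHpH regions, against 13.3% of the bins, and 8.09% of the CpG regions, against 11.9% of the bins. Of these CpHpH regions 256 were higher in FLH and 539 in FLL. In protein-coding genes and outside TEs there were 760 CpG regions in 732 genes, 370 higher in FLH and 390 in FLL, with medians of 51.5% in FLH and 52.4% in FLL. The share higher in FLH was 48.7% (45.1 to 52.2), an interval that includes an even split. The gene column named 1005 of 27444 protein-coding genes, 3.66%. Longer genes were named more often, with a median length of 3138 bp for the genes named and 2078 bp for all protein-coding genes.

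The locus of the gene column with most regions was AT5G39770, annotated as a restriction endonuclease type II-like protein. Its 10 regions were divided evenly, 5 in each direction, with 1 and 1 in CpG, 1 and 1 in CpHpG and 3 and 3 in CpHpH, and over the CpHpH regions 16.6% of reads in FLH and 17.5% in FLL were methylated. The next 4 loci are annotated as pseudogenes and lie in TEs: AT1G41710 (ATHILA6B), AT2G16680 and AT1G29650 (both TA11, a LINE) and AT4G08880 (VANDAL2). AT1G29650 was the one with all its regions in 1 direction, 1 CpG region with 72.0% in FLH and 96.3% in FLL and 3 CpHpH regions with 14.1% in FLH and 27.2% in FLL. AT2G16680 had 3 of 4 CpHpH regions higher in FLL.

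Genes of the methylation machinery itself were among those with a region. Of 33 genes for DNA methylation and demethylation, 4 were named in the gene column, with 6 regions, and all 6 were higher in FLH. Of 23 genes for photoreceptors and light signalling 3 were named, of 30 for photosynthesis and photoprotection 1, of 11 of the circadian clock 1, and of 9 loci known for silencing by methylation 1. Over the 5 lists this made 10 of 104 genes, beside the 3.66% of all protein-coding genes. But the genes of these lists are also long, with a median of 3499.5 bp, and of 5039 bp for the DNA methylation list. No test was made of these counts.

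CLSY1, a chromatin remodeller that brings RNA polymerase IV to RdDM targets (CHR38 in RefSeq, AT3G42670), had 3 CpG regions in coding exons, and this gene lies in the pericentromeric windows of chromosome 3. Region 1 had 50 of 114 reads methylated in FLH and 16 of 90 in FLL, or 43.9% (35.1 to 53.0) and 17.8% (11.2 to 26.9). Region 2 had 92.4% in FLH and 66.7% in FLL, and region 3 had 52.0% in FLH and 26.7% in FLL. The level was thus higher in FLH at 3 places of the gene body, by 25.31 to 26.08 points, all read in the same pair of libraries. CMT3, the CpHpG methyltransferase (AT1G69770), had 22 of 40 CpG reads methylated in FLH and 8 of 42 in FLL, or 55.0% (39.8 to 69.3) and 19.0% (9.98 to 33.3). SUVH6, a histone H3 lysine 9 methyltransferase of the CMT3 pathway (AT2G22740), had 70.0% in FLH and 38.0% in FLL in a coding exon. SUVH9, which binds methylated DNA and helps recruit RNA polymerase V in RdDM (AT4G13460), had a CpHpH region at its start, over an ATHPOGON3 element, with 33 of 250 reads methylated in FLH and 4 of 363 in FLL. Its levels of 13.2% (9.56 to 17.96) and 1.102% (0.429 to 2.80) make it a region almost free of CpHpH methylation in FLL.

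The genes of light signalling were divided. COP1, the ubiquitin ligase that represses photomorphogenesis in the dark (AT2G32950), had a CpG region in an intron with 90.1% in FLH and 68.8% in FLL. DET1, another repressor of photomorphogenesis (AT4G10180), had a CpG region over an ATREP10D element with 55.4% in FLH and 83.1% in FLL. PHOT1, the blue light receptor phototropin 1 (AT3G45780), had a CpHpH region in an intron, over a RathE2_cons element, with 58 of 334 reads in FLH and 95 of 328 in FLL, or 17.4% (13.7 to 21.8) and 29.0% (24.3 to 34.1). LHCA1, an antenna protein of photosystem I (AT3G54890), had 9 of 87 CpG reads methylated in FLH and 31 of 89 in FLL. GI, which links the circadian clock to flowering (AT1G22770), had 56.9% in FLH and 84.3% in FLL in a coding exon. FWA, a homeobox gene whose silencing by methylation of repeats near its start is well known (AT4G25530), had a CpHpH region with 20.6% in FLH (16.2 to 25.8) and 7.50% in FLL (4.60 to 12.004). The Fisher's exact test on reads gave an adjusted p of at most 0.0021 for each of these 12 regions. They had been called on these same reads, so these p-values are no separate evidence for the named genes. Of all 6272 called regions, 6238 passed 0.01 in this test. Its summed counts also hold reads that span several cytosines more than once. With reads per cytosine as observations, which leaves little room to pass, 0 regions passed 0.01 after adjustment.

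**Figure D4:**
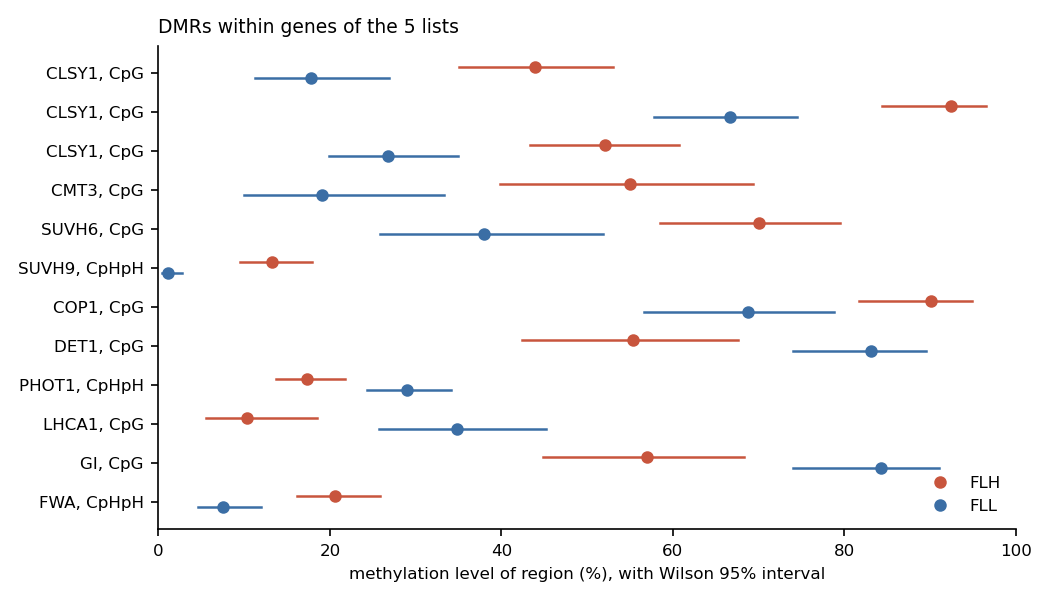
Methylation level (%, horizontal axis) in FLH (red, upper point of each pair) and FLL (blue, lower point) at the 12 DMRs within genes of the 5 lists, with 95% Wilson intervals as lines. All 6 regions of CLSY1, CMT3, SUVH6 and SUVH9 lie further right in FLH.

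The 1 kb before the gene start gave a further set, chosen after its values were seen. Of the 104 genes 9 had a region centred there, beside 4.3% of all protein-coding genes, and all these regions were CpHpH. The genes for photosynthesis and photoprotection with such a region were 4, all with the higher level in FLH. PGR5, needed for cyclic electron flow around photosystem I, had 24.9% in FLH and 8.90% in FLL. LCNP, a plastid lipocalin needed for a lasting form of energy dissipation, had 53.8% in FLH and 33.1% in FLL at an ATLINE1A element. GLK1, a transcription factor for chloroplast genes, had 38.6% in FLH and 23.2% in FLL, and PSAD1, a subunit of photosystem I, had 28.5% in FLH and 16.4% in FLL. For the DNA methylation genes the directions differed. MET1 had 11.2% in FLH and 25.7% in FLL at an ATREP3 element, and NRPD2, the subunit shared by RNA polymerases IV and V, had 0.958% in FLH and 11.3% in FLL in a region that also lies before the start of the neighbouring gene AT3G23790. VIM1, a partner of MET1, had 31.3% in FLH and 19.7% in FLL. SUVH9 had the region described above and another, 921 bp before its start, with 36.2% in FLH and 49.8% in FLL. PIF3, a transcription factor bound by phytochrome, had 11.9% in FLH and 26.4% in FLL at an ATREP3 element.

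Of the 8 loci named in the study beside methylation or expression, 4 were in the FLH against FLL table. The study lists AT3G58730, AT1G19090 and AT1G54040 among loci differentially methylated in every comparison. It lists AT2G10940 among genes that changed in methylation and expression between high and low light. Their presence here thus follows from how they were chosen and is no separate finding. AT3G58730, whose coding exon is printed above, had 17 of 46 CpG reads methylated in FLH and 54 of 60 in FLL, or 37.0% (24.5 to 51.4) and 90.0% (79.9 to 95.3). AT1G19090 had 1 CpHpH region higher in FLH (20.1% in FLH and 8.86% in FLL) and 2 higher in FLL (14.4% and 17.2% in FLH, 25.2% and 27.6% in FLL). AT1G54040, the epithiospecifier protein ESP of glucosinolate breakdown, had opposite directions in different bins of 1 ATREP1 element. Its CpG bin (chr1:20172001-20172150) had 54.7% in FLH and 76.9% in FLL. Its CpHpH bin (chr1:20172301-20172450) had 32.3% in FLH and 19.2% in FLL. Context and position therefore cannot be told apart here. AT2G10940, annotated as a lipid-transfer protein, had 38.7% in FLH and 17.3% in FLL in CpG. AT1G03090 (MCCA), AT1G27880, AT3G56940 and AT4G26850, which the study names for square-wave against fluctuating light, had no region in this table.

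Square-wave light gives a separate comparison of high with low light, since SQH and SQL share no library with FLH and FLL. In CpHpH the main direction there was the opposite one, with 65.4% of 2780 regions higher in SQH (63.6 to 67.1), against 34.5% of 3105 higher in FLH. The regions of these 2 lists are mostly different ones. The same 150 bp bin was called in the same context in both at 338 places, which are 5.39% of the FLH against FLL regions and 9.65% of the 3501 SQH against SQL regions. High light and low light differed in the same direction at 151 of the 338 bins (44.7%, 39.5 to 50.005). An exact binomial test against 50%, two-sided, gave p = 0.057 and an adjusted p = 0.114 over 4 tests. Against the 47.9% that the directions alone would give, the exact p was 0.253 and the adjusted p 0.497. Bins are not replicates of the light regimes, so these p-values describe the 4 libraries only. By context this was 146 of 322 CpHpH bins (45.3%, 39.99 to 50.8, adjusted p = 0.141 by the same exact test), 4 of 6 CpHpG bins (adjusted exact p = 0.688) and 1 of 10 CpG bins (adjusted exact p = 0.0859). When regions that overlap by at least 1 base were counted, 448 in number, the share was 44.4% and the adjusted p of the exact test against 50% was 0.041. This set was not tested against the share that the directions alone would give. Its p-value therefore cannot separate a relation between bins from the opposite main directions of the 2 lists. The SQH against SQL table lists no CpG difference under 40.2 points, so its 76 CpG regions are not the counterpart of the 2374 here.

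**Figure D5:**
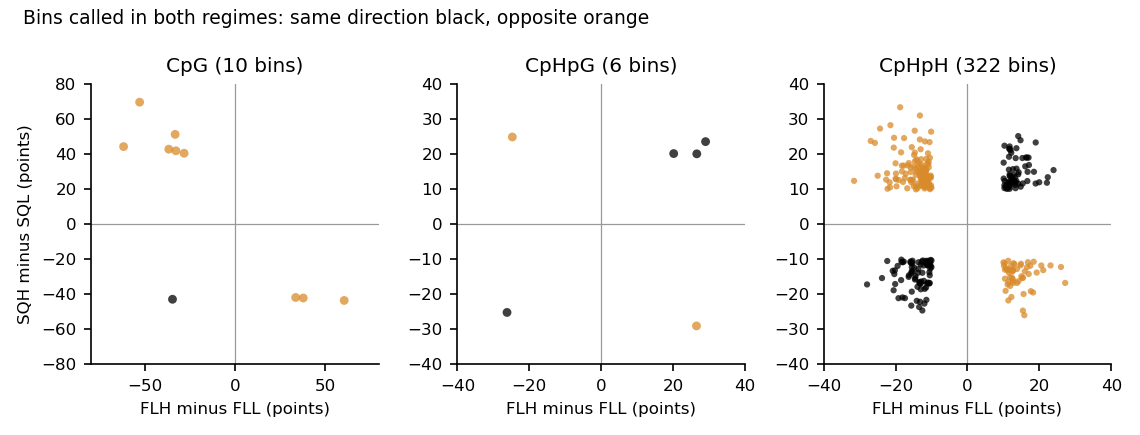
Difference between FLH and FLL (points, horizontal axis) and between SQH and SQL (points, vertical axis) at the bins called in both comparisons, by context. Black points have the same direction in both and orange points opposite directions, the empty bands around 0 are the minimum differences for a call, and 176 of the 322 CpHpH points are orange.

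The bins with the largest differences in both comparisons show each pattern. With the same direction, an ATHILA2 element (AT2G06335, chr2:2498951-2499100, CpG) had 58.3% in FLH and 93.1% in FLL, and 48.0% in SQH and 90.9% in SQL, from 22 to 50 reads per library. The other 4 were CpHpG bins of the pericentromere. An ATHILA6B element (AT5G32254) had 48.8% in FLH and 75% in FLL, and 37.6% in SQH and 62.9% in SQL. A VANDAL3 element (AT5G35045) had 67.6% in FLH and 38.6% in FLL, and 51.6% in SQH and 28.0% in SQL. BRODYAGA1A at AT1G43110 had 28.6% in FLH and 2.0% in FLL, and 25% in SQH and 4.84% in SQL, and ATGP1 at AT5G34849 had 50% in FLH and 29.9% in FLL, and 56.7% in SQH and 36.5% in SQL.

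With opposite directions, the CpG bin of AT3G58730 had 37.0% in FLH and 90.0% in FLL, but 92.1% in SQH and 22.2% in SQL. The ATIS112A element had 17.0% in FLH and 78.9% in FLL, but 70.0% in SQH and 25.5% in SQL, and AT1G20925 had 69.0% in FLH and 8.33% in FLL, but 30.8% in SQH and 74.4% in SQL. These bins took a low and a high level under each light pattern, with no common order of high and low light. At the CLSY1 and CMT3 regions SQL levels are listed because SQL was itself called different from FLL, and no SQH level is listed there. They were 41.6%, 87.2% and 51.3% at the CLSY1 regions, and 58.6% at CMT3, values that a listing rule based on a distance from FLL has selected. At the region upstream of AT4G10060 both square-wave libraries, with 17.96% in SQH and 17.2% in SQL, lay between the 2.30% of FLH and the 29.8% of FLL. These levels are listed because SQH was called different from FLH, and SQL from FLL. The listing rule has therefore selected these values too.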

How the data were processed

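Leaf DNA of 4 light regimes was bisulfite-sequenced, 1 library per regime. Per the labels, the authors used Trimmomatic 0.39, Bismark and Bowtie2 with the TAIR10 build. DMRs were called by the authors with DMRcaller (bins of 150 bp, p-value below 0.01). A bin needed 4 or more cytosines, 4 or more reads per cytosine, and a difference in the methylated fraction of 0.2 or more, lowered to 0.1 for CpHpH.

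The deposited values are raw counts of methylated reads and of all reads, which the authors added up over the cytosines of each region. The deposited fraction of each region is the ratio of these counts, and levels recomputed from the counts differed from it by less than 5.0e-08 points. The deposited p-value of each region was used only as a stricter filter. The authors' own column of differences was not used. Only called regions were analysed, so depth refers to these. CpG regions had a median of 64 reads in FLH and 73 in FLL, and CpHpH regions 274 and 293. Lines of the SQH against SQL table, 5017 in number, repeat regions and were reduced to 3501 regions.

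Wilson intervals, two-sided Fisher's exact tests with Benjamini-Hochberg adjustment over all 6272 regions and two-sided exact binomial tests were computed with Python 3.11.15, numpy 2.4.6, pandas 2.3.3 and SciPy 1.17.1, with plots from matplotlib 3.10.9. The test on reads was tested on simulated data, in which reads were drawn independently at the summed depth of each region. The simulation thus does not cover reads that are summed once for each cytosine. The TAIR10.1 RefSeq annotation gave gene classes by the midpoint of each region, and 2111 of 2121 names of the gene column matched it. TE groups were formed from the start of family names.

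The members and the gene lists were chosen with earlier results of these data known. Named were the regions with the largest differences per context and direction, the loci and families with most regions, the genes of 5 lists, the loci the study names, the bins called in both intensity comparisons with the largest differences, and the longest runs. Chromosome ends, regions before the start of list genes and the widest region were chosen after their values were seen. Alternatives used a p-value of at most 0.001, 8 reads per cytosine, joined bins, a CpG minimum of 40 points, other tests, another pericentromere and other definitions of a shared bin. Of the regions with the largest differences, 1 is not reported here. The expression data were not analysed here.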

Additional observations from a re-analysis of the deposited data

Results flagged for a closer look

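The following 4 pairs of values differed in direction between the light patterns. The share of CpHpH regions with the higher level in high light was 34.5% in FLH against FLL and 65.4% in SQH against SQL. The 2 lists hold mostly different regions of 1 library per regime, and the difference between the shares was not tested.

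At 3 CpG bins the high-light library was higher under one pattern and lower under the other. At AT3G58730 (chr3:21718601-21718750) the level in FLH minus that in FLL was -53.04 points and that in SQH minus SQL 69.88 points. At the ATIS112A element (chr2:623501-623650) these were -61.97 and 44.47 points, and at AT1G20925 (chr1:7291951-7292100) they were 60.71 and -43.59 points. The bins hold 4 CpG cytosines each and the differences between the patterns were not tested.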

How the results depend on the processing

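No paired analysis was possible because each regime is 1 library, and for the same reason no replicate could be left out. The CpHpH and CpHpG majorities in FLL kept their direction under each alternative run. The number of CpG DMRs was 1012 at a deposited p-value of at most 0.001, 1241 at 8 reads per cytosine and 77 at a CpG difference of at least 40 points, where 42.9% were higher in FLH. The number of CpHpG DMRs was 310 at the stricter p-value, with 34.2% higher in FLH, and 249 at 8 reads per cytosine. The number of CpHpH DMRs was 1055 at 8 reads per cytosine, with 31.7% higher in FLH. The share of all regions in a TE, 67.4%, was 68.9% at the stricter p-value and 55.7% at 8 reads per cytosine. The share in the pericentromere, 31.2%, was 29.3% and 22.0% under these settings and 19.9% with windows under 0.25 times the median gene number. Over all bins, the share with the same direction in both intensity comparisons was 44.4% for regions that overlap, with an adjusted p of 0.041 by the exact binomial test against 50%. Regions that overlap were not tested against the share that the directions alone would give. The adjusted p under the other alternatives lay between 0.12 and 0.497. Of 50 recomputed shares of TE groups, 41 stayed within the interval of the main value. The region medians moved by less than their quartile range under both filters. With reads per cytosine as observations 0 regions passed 0.01 by the exact test, against 40 at an unadjusted p under 0.05. At about 8 observations per library this test had little room to pass any region after adjustment. A bin can also be covered by more reads than its average cytosine, so this setting is a lower bound. Single regions rest on few reads and are weakly determined.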
